A study of Homo sapiens with 4 samples.

Results

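The regions described here are 537 FLAG peaks that overlapped no SMAD3 peak but whose summit lay within 10 kb of a SMAD3 summit on the same chromosome. They were chosen from both peak lists by position, on chromosomes 1 to 22 and X, and their summit also had to lie within 250 kb of a RefSeq GRCh38 gene. They made up 7.60% (exact binomial 95% interval 6.99 to 8.24%, counting error only) of the 7066 FLAG peaks that lay within 250 kb of a gene, and the whole FLAG list held 9466 peaks. Of those 7066 peaks, 60 (0.849%, 0.649 to 1.09%) overlapped a SMAD3 peak. The overlap to expect if the lists were unrelated was not computed. This share is therefore no result on whether FLAG and SMAD3 sites are distinct. Because both lists chose the regions, the values of their FLAG peaks and of the SMAD3 peaks beside them are given as a description, without a test.

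Both lists came from A549 cells, a human lung adenocarcinoma line, which were stably transduced with ATOH8 on a retrovirus. All 4 libraries came from such cells: 1 chromatin immunoprecipitation (ChIP) with a FLAG antibody, 1 ChIP with a SMAD3 antibody and an input library without antibody for each. Cells without the ATOH8 retrovirus were not analysed here, and no ligand or drug treatment of the cells is named in the labels. The promoter that drove ATOH8 and the number of clones behind the transduced line are not given in the sources used here. Peak lists do not measure expression, so the lung epithelial identity of the cells was not checked against its markers.

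ATOH8 belongs to the basic helix-loop-helix (bHLH) transcription factors, which usually act as dimers and recognise short DNA elements called E-boxes. SMAD3 is phosphorylated by receptors of the TGF-beta family, joins SMAD4 in the nucleus and binds a short element, CAGAC or its complement, weakly on its own. SMAD complexes are known to reach many of their sites together with other DNA-binding factors, so that sites of a partner factor and of SMAD3 may coincide or lie apart within the same regulatory region. Separate means here only that the peak caller drew 2 peaks that did not touch. FLAG peaks are taken to mark the transduced ATOH8 because the library names join both words; no label states that the protein carries the tag.

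Few of the regions lay in promoters for which a reference sequence was at hand. Promoters were taken from 250 bases before to 50 after the start. Of 35116 RefSeq promoters (GRCh38.p14), 2 held the summit of one of the 537 FLAG peaks and 3 held the summit of a SMAD3 peak beside one. The same counts for other FLAG and SMAD3 peaks are not given here, so these are no result about the regions. The 250 bases before the start site are shown for 3 of these 5, and the matches in the other 2 are given after them. Capitals mark every match to CANNTG (the bHLH E-box) or CAGAC (the core of the SMAD element) on either strand. PLOD2, which encodes a lysyl hydroxylase of collagen, is on the minus strand (chr3:146161185-146161434), and the FLAG summit lay 225 bp before its start. TRIO is on the plus strand (chr5:14143092-14143341), with the FLAG summit 217 bp before the start. NARS2-AS1, an antisense transcript within NARS2, is on the plus strand (chr11:78532926-78533175), and there it was the SMAD3 summit that lay 143 bp before the start.
PLOD2: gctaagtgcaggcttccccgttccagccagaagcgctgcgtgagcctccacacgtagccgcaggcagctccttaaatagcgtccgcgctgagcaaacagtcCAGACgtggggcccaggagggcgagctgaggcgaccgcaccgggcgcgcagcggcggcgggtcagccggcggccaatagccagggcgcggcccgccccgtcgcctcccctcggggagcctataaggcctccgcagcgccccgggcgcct
TRIO: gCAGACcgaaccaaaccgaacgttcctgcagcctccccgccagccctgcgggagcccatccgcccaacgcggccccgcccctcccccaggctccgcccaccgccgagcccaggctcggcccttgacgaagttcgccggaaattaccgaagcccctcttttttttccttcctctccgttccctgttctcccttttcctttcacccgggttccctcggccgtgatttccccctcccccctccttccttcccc
NARS2-AS1: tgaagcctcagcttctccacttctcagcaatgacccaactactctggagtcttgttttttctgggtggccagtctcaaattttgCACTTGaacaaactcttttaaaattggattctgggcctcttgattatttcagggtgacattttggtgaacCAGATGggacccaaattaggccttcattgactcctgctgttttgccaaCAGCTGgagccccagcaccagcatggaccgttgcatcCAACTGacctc
The PLOD2 and TRIO windows, which held FLAG summits, had 1 match to CAGAC each and 0 to CANNTG. The NARS2-AS1 window, which held a SMAD3 summit, had 4 matches to CANNTG and 0 to CAGAC. The 250 bases of the 2 promoters not shown, TAOK1 and LOC124904866, had 0 matches to either. Their SMAD3 summits lay 35 bp after and 99 bp before the start. Such letters are common: 61.8% of all 35116 windows of this length held CANNTG and 38.0% held CAGAC, while 0.182% held the palindrome GTCTAGAC, which was in none of the 3 shown. A match of letters is a description and not a binding site.

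The FLAG peaks at these promoters were modest. At PLOD2 the peak (chr3:146161238-146161643) had a pileup of 10 tags, that is the number of fragments stacked at the summit, on an implied input background of 1.79 tags. Its fold enrichment, the authors' ratio of pileup plus 1 to local background plus 1, was 3.95 with a −log10 q of 1.62. At TRIO the FLAG peak (chr5:14143113-14143353) had 7 tags on a background of 2.47, a fold of 2.30 and a −log10 q of 0. Its SMAD3 neighbour lay 1234 bp away inside TRIO, with 9 tags and a fold of 3.14. A second FLAG peak inside TRIO (chr5:14157230-14157885) stood higher, with 16 tags, a fold of 3.32 and a −log10 q of 1.83. The NARS2 pair had summits 682 bp apart. There the FLAG peak had 6 tags and a fold of 2.68, and the SMAD3 peak 7 tags and a fold of 3.53. NARS2 encodes the mitochondrial asparaginyl-tRNA synthetase. Only the PLOD2 peak and the second TRIO peak among these had a q under 0.05.

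PLOD2 carried 3 of the regions in a row, all outside the gene on the side of its start, around 1 SMAD3 peak. The FLAG summits lay 225, 2677 and 5538 bp from the gene and the SMAD3 summit 1608 bp from it, so the SMAD3 peak stood between the first and second FLAG peak. The FLAG pileups were 10, 13 and 7 tags in that order, with folds of 3.95, 5.37 and 3.02. The SMAD3 peak (chr3:146162710-146162912) had 7 tags, a fold of 3.21 and a −log10 q of 0.0593. The middle FLAG peak was thus the highest of the 4, and the SMAD3 peak missed a q of 0.05.

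By fold enrichment, the strongest FLAG peak with a separate SMAD3 peak beside it lay in NPAS4, a bHLH-PAS transcription factor induced by neuronal activity. It spanned chr11:66421612-66422243 with 35 tags on an implied background of 2.21, a fold of 11.2 and a −log10 q of 24.8. The exact Poisson 95% interval of 35 tags is 24.4 to 48.7. Higher pileups, up to 482 tags, and a −log10 q of up to 45.3 occurred among the regions with high input background, described further on. The SMAD3 peak (chr11:66424579-66424956) lay in the same gene, 2931 bp from summit to summit and farther from the gene's start. It had 7 tags on a background of 1.49, a fold of 3.21 and a −log10 q of 0.0593. The FLAG peak therefore stood far above its input and the SMAD3 peak only a little above its own.

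AFAP1, which encodes an actin filament-associated adaptor of Src, held 4 of the 537 regions around 1 SMAD3 peak, more of them than any other protein-coding gene. The strongest (chr4:7867118-7868616) had 28 tags, a fold of 10.9 and a −log10 q of 20.2, and at 1499 bp it was wide. The other three had 7 or 8 tags and folds of 3.16, 2.59 and 3.56, none with a q under 0.05. The SMAD3 peak (chr4:7869861-7870063) had 8 tags, a fold of 3.97 and a −log10 q of 0.700. It lay between the third and the fourth FLAG peak, and the gap between its edge and that of the fourth was 68 bp. All 4 FLAG peaks lay inside the gene on implied backgrounds of 1.53 to 2.47 tags.

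Further strong FLAG peaks lay in UBE2Z, DNAL1, SLFN5 and KRT8. UBE2Z encodes a ubiquitin-conjugating enzyme, and its FLAG peak (chr17:48915592-48916163) had 24 tags and a fold of 7.39. The SMAD3 peak beside it lay 9762 bp away, outside UBE2Z in LOC105371814, with 6 tags and a fold of 2.72. DNAL1, an axonemal dynein light chain gene, had a FLAG peak of 28 tags and a fold of 6.75 (chr14:73662371-73663355), with a SMAD3 peak of 7 tags and a fold of 3.09 lying 2722 bp away in the same gene. SLFN5, a Schlafen family gene induced by interferon, had a FLAG peak of 17 tags and a fold of 6.03 (chr17:35254331-35254746), and its SMAD3 peak of 7 tags lay 7852 bp away with a fold of 3.29. In each of these 3 pairs the FLAG peak had a q under 0.05 and the SMAD3 peak did not.

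At the neighbouring keratin genes KRT8 and KRT18, which encode the keratin pair of simple epithelia, the FLAG and the SMAD3 peak of the pair lay in different genes. The FLAG peak (chr12:52945684-52946442) was in KRT8, with 18 tags on a background of 2.47, a fold of 5.47 and a −log10 q of 6.17. Its summit also lay 2689 bp from an end of KRT18, the nearest end of any protein-coding gene. The SMAD3 peak (chr12:52951146-52951348) was in KRT18, with 8 tags on a background of 1.83, a fold of 3.18 and a −log10 q of 0.150. Their summits were 5064 bp apart. A second keratin locus, KRT86, held 2 weaker FLAG peaks of 10 and 9 tags, with folds of 3.17 and 2.75. They shared 1 SMAD3 peak, whose summit lay in both KRT86 and the overlapping KRT81 and which had 10 tags, a fold of 4.56 and a −log10 q of 1.75. KRT86 is named because it was 1 of 10 protein-coding genes that held 2 or more of the regions, a choice made after its values were seen.

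**Figure D1:**
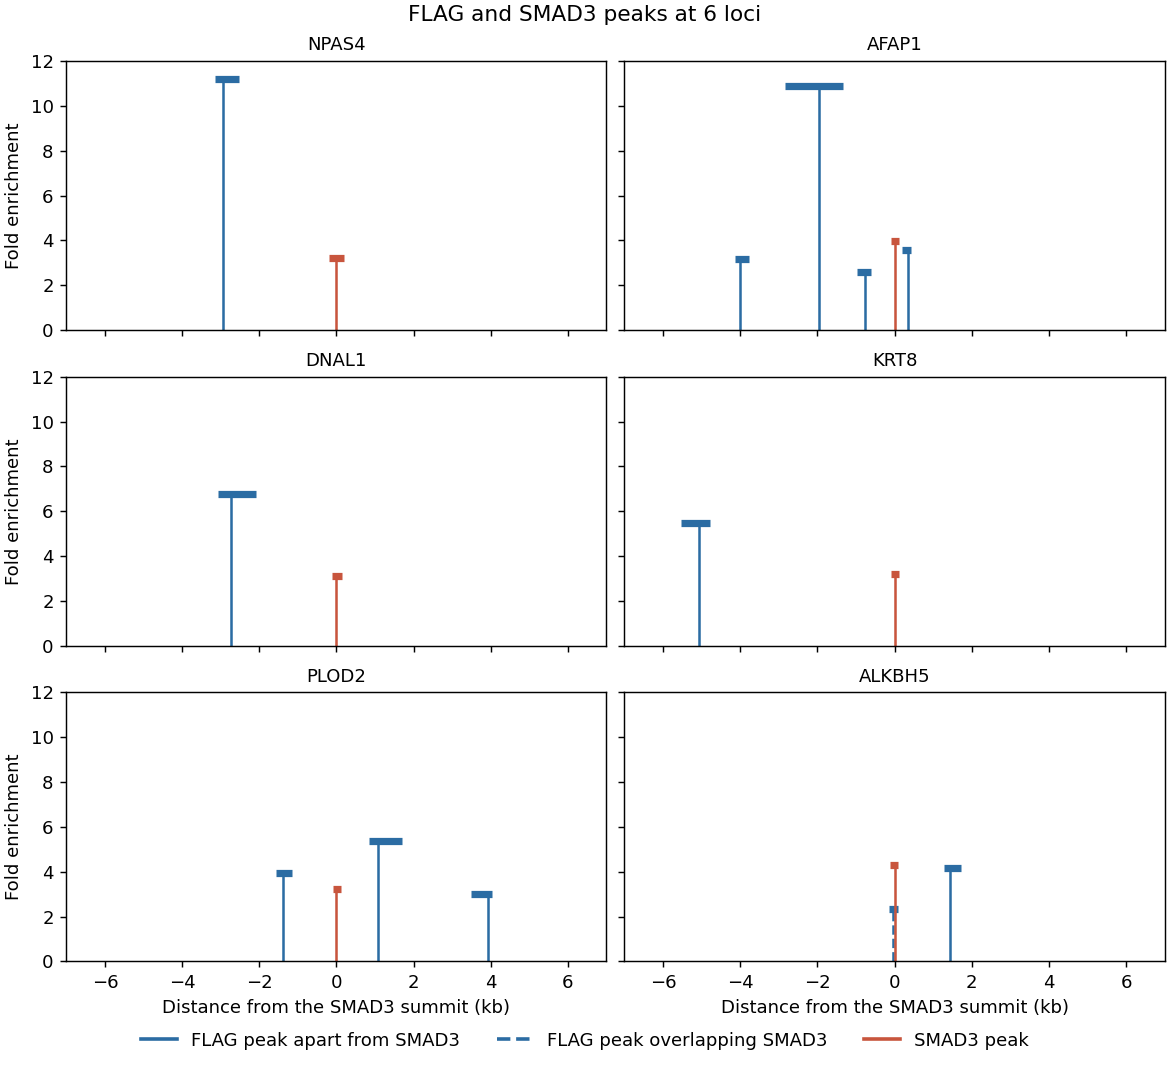
Peaks of both lists at NPAS4, AFAP1, DNAL1, KRT8, PLOD2 and ALKBH5, by distance from the SMAD3 summit in kb (negative towards lower coordinates); stems mark summits, stem height is fold enrichment over input and the horizontal bar is the width of the peak. FLAG peaks reach a fold of 11.2 at NPAS4 and 10.9 at AFAP1, while the SMAD3 peaks run from 3.09 at DNAL1 to 4.32 at ALKBH5.

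Of the 537 regions, 14 (2.61%) had a FLAG fold of 5 or more, against a background of 3.42% of all FLAG peaks within 250 kb of a gene. Besides those already described, the next strongest were assigned to LOC101927389 (7.70), CNTNAP3P4, LOC101927588 (6.20), EWSR1P2 (6.05) and LEMD1-AS1 (5.55). Each is the gene that holds the summit or lies nearest to it, and all are long noncoding RNA genes or pseudogenes. The summits lay inside LOC101927588 and LEMD1-AS1, but 4845, 152947 and 68073 bp from LOC101927389, CNTNAP3P4 and EWSR1P2 in that order. Summits lay inside a protein-coding gene in 7 of the 14. None of the 14 SMAD3 peaks beside them had a q under 0.05, where 3.79% of SMAD3 peaks within 250 kb of a gene had one, so that 0 of 14 is no result about them. Those SMAD3 peaks had 5 to 11 tags and folds of 2.32 to 3.97. The median fold of all 438 SMAD3 peaks beside the 537 regions was 3.09.

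**Figure D2:**
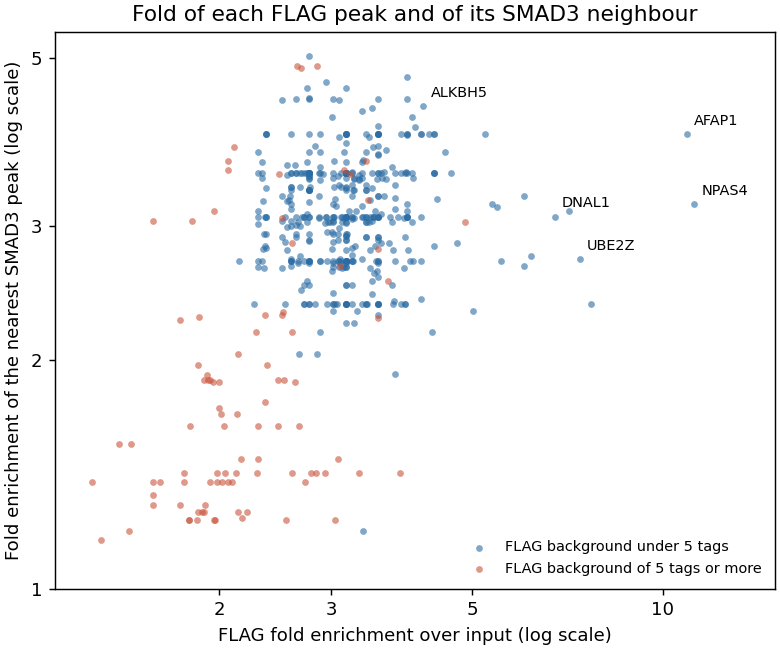
Each point is 1 of the 537 FLAG peaks: its fold enrichment over input on the x axis and that of the nearest SMAD3 peak on the y axis, both on log scales, coloured by the implied input background at the FLAG summit. The 14 FLAG peaks at a fold of 5 or more have SMAD3 neighbours between 2.32 and 3.97.

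ALKBH5, which encodes an RNA demethylase of N6-methyladenosine, held a pair in which both peaks had a q under 0.05. The FLAG peak (chr17:18208210-18208650) had 17 tags on a background of 3.30, a fold of 4.19 and a −log10 q of 3.62. The SMAD3 peak (chr17:18206813-18207026) had 16 tags on a background of 2.94, a fold of 4.32 and a −log10 q of 2.77, with summits 1427 bp apart. This SMAD3 peak also overlapped another, weaker FLAG peak of 11 tags and a fold of 2.34, so it is not separate from FLAG altogether. The same held for 27 of the 438 SMAD3 peaks that were nearest to one of the regions, and these 27 were the nearest for 81 of the 537. SND1, which encodes a nuclease domain protein, was the gene nearest to another such pair, with the FLAG summit 13324 bp outside it. There both peaks had 9 tags, and the FLAG fold was 3.95 at a −log10 q of 1.43. The SMAD3 fold was 4.41 at a −log10 q of 1.34.

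Pairs with a q under 0.05 in both lists numbered 31 of 537 (5.77%, 3.96 to 8.09%). In 6 of the 31 both implied backgrounds were under 5 tags: ALKBH5, SND1, and 4 assigned to the pseudogenes LOC100420171, LOC101060796, IGKV1OR2-2 and ANKRD30BP2. The FLAG summit lay inside LOC100420171, but 243323, 169155 and 177961 bp from the others in that order. FLAG folds at these 4 were 3.32, 3.95, 3.49 and 3.32, and SMAD3 folds 3.50, 4.71, 3.81 and 3.46. Taking FLAG alone, 154 of the regions (28.7%, 24.9 to 32.7%) had a q under 0.05, where the background was 16.7% of FLAG peaks within 250 kb of a gene. Of the 438 SMAD3 peaks beside them 31 (7.08%, 4.86 to 9.90%) had one, where the background was 3.79%, and 5.20% had one among the 404 SMAD3 peaks with an implied background under 5. These shares are not a test of a difference, since peaks of 1 library are not replicates.

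The input background moved with those shares. It was 5 tags or more at 94 of the 537 FLAG summits (17.5%, 14.4 to 21.0%), against 116 of the 6529 other FLAG peaks within 250 kb of a gene (1.78%, 1.47 to 2.13%). At these 94 the median pileup was 86 tags on a median background of 44.5, the median fold was 2.11, and 79 had a q under 0.05 (84.0%). At the remaining 443 the median pileup was 8 tags on a background of 1.65, the median fold was 3.16, and 75 had a q under 0.05 (16.9%, 13.6 to 20.8%). The other FLAG peaks with a background under 5 had a median fold of 3.16 as well, and 14.7% (13.8 to 15.6%) had a q under 0.05. Without the high backgrounds, then, the share with a low q lay close to that of other FLAG peaks. What the high background contributes was not tested beyond this split.

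Most of the regions rest on few tags. A pileup of 10 tags or fewer was found at 379 of 537 (70.6%), and the exact Poisson 95% interval of the median, 8 tags, is 3.45 to 15.8. A summit is the highest point of its peak, so this interval covers counting error only and not that choice. Single regions with such pileups are described below but carry little weight one by one.

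High input background was shared by both peaks of a pair. Of the 94 FLAG peaks with a background of 5 or more, 79 had a SMAD3 neighbour with one as well, against 8 of the other 443. Across all 537 pairs the logarithms of both backgrounds had a Pearson coefficient of 0.927 and their ranks a Spearman coefficient of 0.625. FLAG and SMAD3 folds had a Spearman coefficient of 0.313 over all pairs and of 0.0506 over the 435 pairs with both backgrounds under 5. Pairs share their locus and some share a SMAD3 peak, so these coefficients are descriptions.

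**Figure D3:**
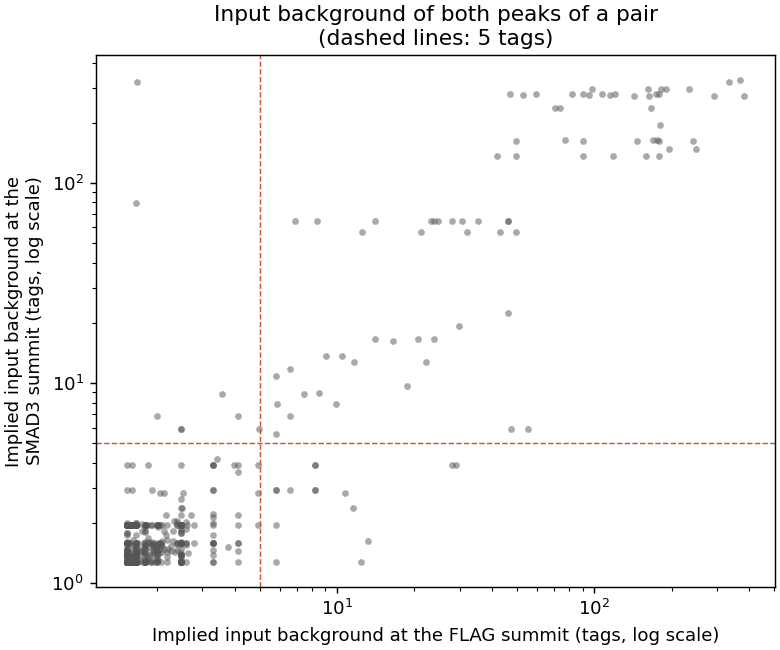
Implied input background in tags at each FLAG summit (x axis) and at its nearest SMAD3 summit (y axis), both on log scales, for 537 pairs. Most points lie at the lower left, with 435 pairs under 5 tags in both, and the rest spread up to 381 tags for FLAG and 329 for SMAD3.

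Most of the regions with high background gathered at a few places beside centromeres or on the short arm of chromosome 21. Near KSR1P1 on chromosome 10 (42066423 to 42089421), 16 FLAG peaks stood around 2 SMAD3 summits, with pileups of 21 to 95 tags, backgrounds of 6.89 to 49.5 and folds of 1.76 to 3.85. Near LOC102724523 on chromosome 16 (34571567 to 34595852), 13 FLAG peaks stood around 3 SMAD3 summits, with pileups of 127 to 465 tags and folds of 1.85 to 2.63. Near ANKRD26P1 on the same chromosome (46380720 to 46407134), 10 FLAG peaks stood around 4 SMAD3 summits, with pileups of 8 to 482 tags and folds of 1.26 to 3.37. Near LOC101929814 on chromosome 1, groups of 9 and 7 FLAG peaks stood around 2 SMAD3 summits and 1. In these 5 groups each of the SMAD3 peaks also overlapped a further FLAG peak that is not counted here, so none of them was separate from FLAG altogether. All of these lay outside genes, the first summit of each group between 71643 and 138988 bp from the nearest one. The 7 windows of 1 Mb with 8 or more of the regions held 106 of the 537, and 73 of the 94 with high background. Some of the rest lay far from such places, as did 2 on chromosome 18 (summits 108150 and 110424) with a median background of 221 tags.

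Ribosomal RNA genes were among the places where high background gathered. The 45S repeats on the short arm of chromosome 21 are transcribed by RNA polymerase I and occur in many near-identical copies, so reads cannot be assigned to 1 copy with certainty. At RNA45SN3 and RNA28SN3, 3 FLAG peaks had pileups of 50, 29 and 42 tags on backgrounds of 20.6, 11.6 and 22.2, with folds of 2.36, 2.38 and 1.85. The SMAD3 peaks beside them had 30 and 26 tags, with folds of 1.76 and 1.97. At RNA45SN1 the FLAG peak had 56 tags and a fold of 1.86, and a SMAD3 peak of 45 tags and a fold of 2.28 lay 9247 bp away. Tags were many and folds low in both lists.

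Chromosomes differed in how many of their FLAG peaks had a SMAD3 peak close by. The share was 20.3% on chromosome 21 (15 of 74, 11.8 to 31.2%), 17.3% on chromosome 16 (62 of 359, 13.5 to 21.6%) and 16.8% on chromosome 20 (52 of 309, 12.8 to 21.5%). It was lowest on chromosome 6, at 1.20% (2 of 167, 0.145 to 4.26%), followed by 2.38% on chromosome 18 (2 of 84, 0.290 to 8.34%), 3.06% on chromosome X (3 of 98, 0.636 to 8.69%) and 3.56% on chromosome 2 (18 of 506, 2.12 to 5.56%). With peaks of a background under 5 only, chromosome 20 had 14.1%, chromosome 16 had 11.6% and chromosome 21 had 9.68%, while chromosome 18 had 0 of 80, chromosome 6 had 1.20%, chromosome X had 3.09% and chromosome 2 had 3.51%. Of the 3 highest, chromosome 20 changed least. The number of SMAD3 peaks per chromosome, on which this share also depends, is not given here. The intervals treat peaks as independent, yet 26 and 10 of the 62 on chromosome 16 lay in the 1 Mb windows at 34 and 46 Mb.

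**Figure D4:**
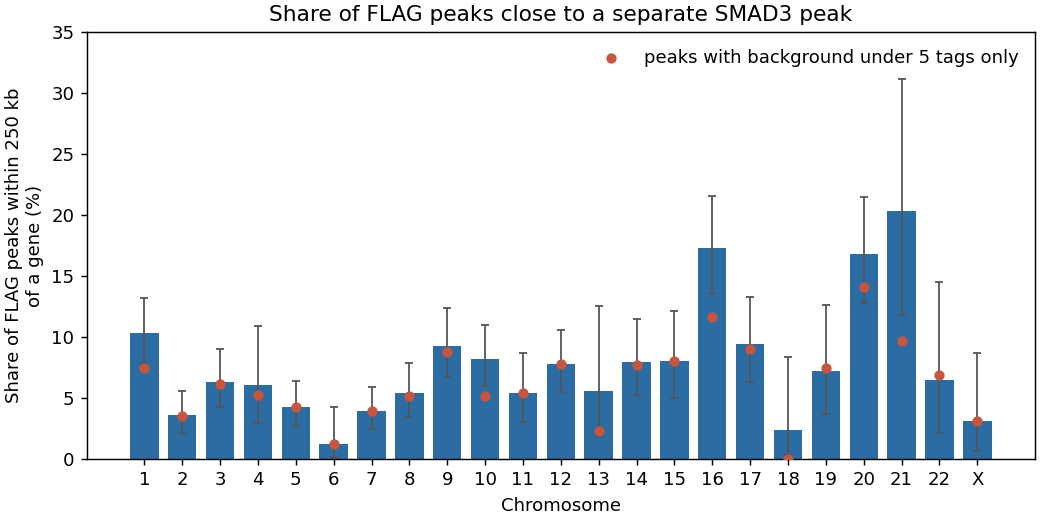
Share of FLAG peaks within 250 kb of a gene that lie close to a separate SMAD3 peak, in percent, by chromosome; bars give all peaks with exact binomial 95% intervals and dots the share among peaks with an implied input background under 5 tags. Bars are highest on chromosomes 21, 16 and 20, and the dot of chromosome 21 falls to 9.68%.

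The 2 summits of a pair were usually some kb apart. The summits of the closest pair were 290 bp apart, those of the farthest 9975 bp, and the median was 4493 bp, while the gap between the peaks' edges was at least 58 bp. Only 44 pairs (8.19%) had summits within 1 kb, and 245 (45.6%) had summits over 5 kb apart. The median FLAG fold was 2.82 within 1 kb, where 34.1% of the regions had a background of 5 or more, and 3.16 over 5 kb, where 11.4% had one. The SMAD3 summit lay at the higher coordinate in 263 pairs (49.0%, 44.7 to 53.3%). Of the pairs, 409 were each other's nearest, and 385 of the 438 SMAD3 peaks served a single FLAG peak. At the threshold of 10 kb the last peak inside lay 9975 bp from its SMAD3 summit with a fold of 3.16, and the first outside lay 10028 bp away with a fold of 3.68. At that of 250 kb, the last inside lay 249458 bp from a gene (fold 3.01) and the first outside 265889 bp (fold 3.26).

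**Figure D5:**
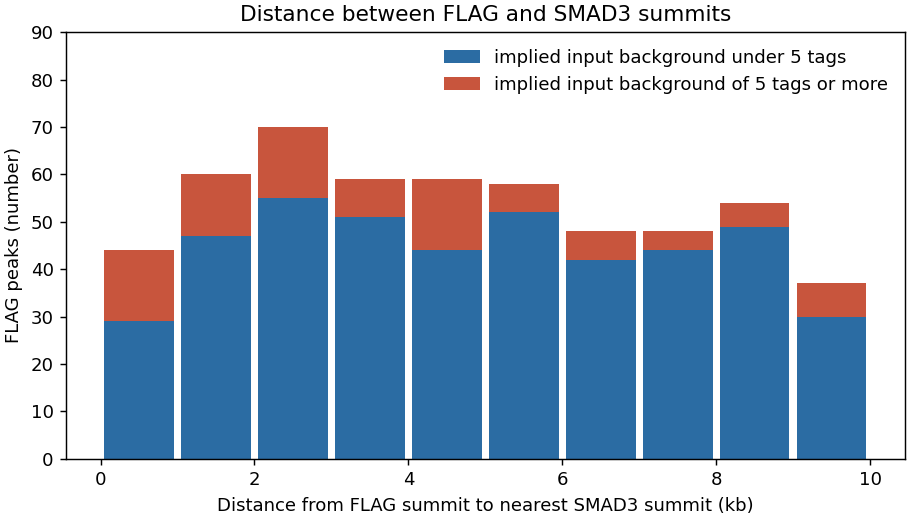
Number of FLAG peaks by distance to the nearest SMAD3 summit, in bins of 1 kb, split by the implied input background at the FLAG summit. The fullest bin is 2 to 3 kb with 70 peaks and the emptiest 9 to 10 kb with 37, and 15 of the 44 peaks in the first bin have a background of 5 tags or more.

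The closest pair lay at TRV-CAC1-1, a valine tRNA gene transcribed by RNA polymerase III. The FLAG peak (chr1:161399541-161399895) covered the gene, with 9 tags, a fold of 3.75 and a −log10 q of 1.20. The SMAD3 summit lay 290 bp away, 253 bp outside the gene, with 6 tags, a fold of 2.37 and a −log10 q of 0. That SMAD3 peak also overlapped a second FLAG peak of 8 tags and a fold of 3.40. The next closest pairs in protein-coding genes lay in ASAP2, which encodes a GTPase-activating protein for Arf (332 bp, FLAG fold 3.35, SMAD3 fold 3.47), AFAP1 (348 bp, above), ZNF345, a zinc finger gene (407 bp, 2.56 and 2.79), and WDR72, a WD repeat gene known for its part in tooth enamel (473 bp, 3.74 and 2.51). Of these, only the WDR72 FLAG peak had a q under 0.05 (−log10 q of 1.74). Apart from AFAP1, none of these genes held one of the regions at a FLAG fold of 5 or more.

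Some pairs had both summits in the same gene. The FLAG summit lay inside a gene in 256 of the 537 (47.7%, 43.4 to 52.0%), of which 192 were in protein-coding genes and 50 in long noncoding RNA genes. In 224 of the 256 the SMAD3 summit lay in the same gene (87.5%). The rule already placed that summit within 10 kb, and protein-coding genes with a region had a median length of 69423 bp. This share was therefore largely set by the choice and is no result about the pairs. Among the other FLAG peaks within 250 kb of a gene, 60.0% (58.8 to 61.2%) were inside one. With a background under 5 the shares were 56.4% (51.7 to 61.1%) and 60.9% (59.7 to 62.1%), and of the 94 with high background 6 were inside a gene. Whether these summits lay in exons, introns or UTRs was not determined. Another FLAG peak lay within 10 kb of 31.1% of the regions (27.2 to 35.2%), against 12.6% of the other peaks. With a background under 5 these shares were 18.5% and 11.4%.

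Summits within 1 kb of an end of a protein-coding gene, start or finish, were found for 25 of the regions (4.66%, 3.04 to 6.80%), against 4.79% (4.29 to 5.34%) of the other FLAG peaks. Their folds had a median of 3.07 and reached 3.95, so none of the strong peaks above was among them. PLOD2 led, followed by FAM90A8 (3.74), a member of a multicopy family in which reads may be split between copies. At a fold of 3.56 and 8 tags followed CECR2, which encodes a bromodomain protein of chromatin remodelling, TNPO1, which encodes a nuclear import receptor (the summit lay in TNPO1-DT, 725 bp from TNPO1), TES, a focal adhesion gene, and TFE3. ZBTB37, a zinc finger gene, had 3.50, and CYP24A1, the hydroxylase that inactivates vitamin D, had 3.35. Of the 25, too few to be set apart from the background of 16.7%, PLOD2 and FAM90A8 alone had a FLAG q under 0.05. At CECR2 it was the SMAD3 peak, 7222 bp away with 9 tags and a fold of 4.41, that had one.

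Cell cycle and TGF-beta genes were looked up because the series title names a cell cycle programme and SMAD3. A region in the gene or within 10 kb was found at 1.35% of 19974 protein-coding genes. It was found at 0 of 48 genes of TGF-beta and BMP signalling, 0 of 37 TGF-beta targets and 0 of 23 BMP targets. It was also found at 0 of 36 cyclins, CDKs and E2Fs, 0 of 42 G2/M genes, 1 of 42 G1/S and replication genes and 1 of 40 cell cycle inhibitors and checkpoint genes. With a background of 1.35% a list of this size holds about 1 such gene or none, so these counts do not set the lists apart. Over all 14 lists, 7 of 535 genes (1.31%) had one.

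The 2 cell cycle genes were GINS4 and CDKN1B. GINS4, a subunit of the replicative helicase complex, had a FLAG peak of 8 tags and a fold of 3.56 lying 1820 bp outside the gene, and a SMAD3 peak of 6 tags and a fold of 3.09 lay 6162 bp from it. CDKN1B, which encodes the cyclin-dependent kinase inhibitor p27, had a FLAG peak of 5 tags and a fold of 2.35 (chr12:12721323-12721652). Its SMAD3 neighbour of 6 tags and a fold of 2.93 lay 5001 bp away in APOLD1. None of these peaks had a q under 0.05, and both CDKN1B peaks had a −log10 q of 0.

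Epithelial and junction genes had 3 of 38 members with a region in the gene or within 10 kb (7.89%, where the background was 1.35%): KRT8 and KRT18, which share the FLAG peak described above, and CTNND1. CTNND1 encodes p120 catenin, which holds cadherins at the membrane. Its FLAG peak had 7 tags and a fold of 3.02, and the SMAD3 peak 2542 bp away in the same gene had 7 tags and a fold of 3.53. As 1 peak counts for both keratin genes, the list rests on 2 FLAG peaks. Any FLAG peak, near SMAD3 or not, was found at 14 of the 38 genes (36.8%), against 16.5% of all protein-coding genes. This was the highest share of the 14 lists, the others running from 10.3% (bHLH) to 21.2% (NRF2 targets). Genes with any FLAG peak had a median length of 80118 bp, against 24170 bp for all. The share was not tested, and neighbouring genes may share a peak. The Wnt list had 1 of 43, TCF7L2, a transcription factor that acts with beta-catenin (FLAG fold 3.44, SMAD3 fold 3.93, 9004 bp apart). The bHLH list had 1 of 78, TFE3, a factor of lysosome genes, whose FLAG summit lay 175 bp from a gene end with a fold of 3.56. NPAS4 is a bHLH gene too but was not on that list. Mesenchymal genes (35), lung epithelial lineage genes (35), NRF2 targets (33), and AP-1 and immediate early genes (35) had 0.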

How the data were processed

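ChIP-seq peak lists of 2 ChIP libraries were used, each called against its own input. The submitters' processing notes name FastQC 0.11.8, Bowtie2, MACS2 2.2.7.1 and the build hg38. Peaks were called from single-end tags at a p cutoff of 0.0065 with 1 tag kept per position, per the file headers, which left 17133946 FLAG and 16857119 SMAD3 ChIP tags (inputs 20785894 and 17215727). For each peak the authors deposited the pileup signal at the summit, the fold enrichment (a ratio of pileup plus 1 to local background plus 1), and −log10 p and −log10 q. The file headers state that q would not be calculated, yet −log10 q values of 0 and above stand in that deposited column and were used unchanged. The cutoff is permissive, and a peak is listed whether or not its q is low. The implied input background was computed from pileup and fold, and its lowest value was 1.53 tags (FLAG) and 1.27 (SMAD3). The lower quartiles of the other peaks within 250 kb of a gene were 1.53 and 1.27 as well. These lowest values thus act as a floor and need not be the local input at a single peak.

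Overlap meant 1 bp or more, and the count was equal to that of bedtools 2.31.1. Distances ran from summit to summit, and the nearest SMAD3 peak is the one described. Genes came from a RefSeq table of GRCh38.p14, all types included, and strand came from the promoter table. Summits were counted in promoters from 250 bases before to 50 after each start, while the sequences were limited to the 250 bases before it. Computation used Python 3.11.15, numpy 2.4.6, pandas 2.3.3 and scipy 1.17.1. The code was tested on simulated data: all 200 planted regions among 600 peaks were found, with 0 wrong calls. The simulated FLAG peaks stood far apart and all inside a gene, so crowded places and the gene distance rule were not tried. With 1 library per antibody there are no replicates and no test; intervals are exact (Clopper-Pearson) at 95%. The members and lists were chosen with earlier results of these data known. Named genes hold, or lie nearest to, the 10 regions of highest fold, the 8 closest pairs, up to 8 pairs with a q under 0.05 in both lists, up to 8 regions at protein-coding gene ends, up to 6 with several SMAD3 summits, and up to 4 genes per list; some are summarised only. Other genes are named as holding several regions or a promoter summit, or as chosen afterwards.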

Additional observations from a re-analysis of the deposited data

Results flagged for a closer look

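FLAG peaks close to separate SMAD3 peaks were also present outside the regions described, and are given as signal left out of them. On chromosomes 1 to 22 and X but over 250 kb from any gene there were 611, among 2028 FLAG peaks there, with a median fold of 3.17 and a median implied input background of 4.12 tags. Of these, 327 (53.5%) had a q under 0.05, close to the 53.1% of all 2028. On the Y chromosome, the mitochondrion and contigs there were 75 among 372 FLAG peaks, with a median fold of 2.64, a median background of 15.3 tags and 44 (58.7%) with a q under 0.05, against 47.3% of all 372.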

How the results depend on the processing

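All alternatives were planned, and 21 of 55 values stayed within the 95% interval of the value reported (within 1.5 times for counts). The interval of the median fold, by order statistics, was 3.02 to 3.16, and a median printed as 3.16 lay at its upper bound, on either side of it before rounding. The others follow, with the cause not tested unless the setting itself sets the number. With SMAD3 summits within 5 kb, 292 regions (4.13% of FLAG peaks near genes) were found and 37.0% had another FLAG peak within 10 kb; within 20 kb there were 980 (13.9%). Within 10 kb of a gene there were 338 (6.45%), of which 17.5% had a q under 0.05, 75.7% were inside a gene, 66.3% shared the gene with the SMAD3 summit and 14.5% had another FLAG peak close by. With protein-coding genes only the share of FLAG peaks was 6.76%, 21.1% had a q under 0.05 and 19.7% another FLAG peak close by. Counting gaps of up to 1 kb as overlap gave a share of 6.76%. With SMAD3 peaks of a q under 0.05 only, there were 63 regions (0.892%): 68.3% had a FLAG q under 0.05, the median fold was 2.48, 15.9% were inside a gene, 14.3% shared the gene and 73.0% had another FLAG peak close by. With FLAG peaks of a q under 0.05 only there were 154 (13.0%), with a median fold of 3.32, 30.5% inside a gene, 27.3% sharing it and 55.8% with another such FLAG peak close by. Without peaks of a background of 5 or more the share was 6.36%, 17.0% had a q under 0.05, the median fold was 3.16, 57.3% were inside a gene, 49.8% shared it and 16.5% had another FLAG peak close by. No paired analysis was possible because each ChIP has 1 library and the labels give no replicate numbers. The SMAD3 peaks beside the regions had a median of 7 tags, and absence of a SMAD3 peak under a FLAG peak does not show that SMAD3 is absent there.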

Other observations

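A position within genes that was looked at only after the data had been seen is given here as values. Where both summits of a pair lay in one gene of known strand, the FLAG summit was the one nearer the gene's start in 108 of 171 pairs (63.2%, exact binomial 95% interval 55.5 to 70.4%). With 1 pair per gene it was 103 of 158 (65.2%, 57.2 to 72.6%), and within protein-coding genes 92 of 138 (66.7%, 58.1 to 74.5%). NPAS4 and DNAL1 had the FLAG summit nearer the start, and ALKBH5, ASAP2 and TCF7L2 the SMAD3 summit. FLAG peaks that were no members, with the nearest SMAD3 summit over 10 to 50 kb away in the same gene, had 191 of 339 (56.3%, 50.9 to 61.7%) by the same count. Strand was missing for 53 of the 224 pairs in one gene. The difference between both shares was not tested.

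Protein-coding genes that held a FLAG summit of the regions numbered 179, of which 10 held more than 1. After AFAP1 (4) came WDR72 (3), and CDH18, KRT86, LIPA, MACROD2, MAGI2, PHC3, TOM1L2 and WWOX held 2 each. CDH18, MACROD2, MAGI2 and WWOX are over 1 Mb long. In WWOX, an oxidoreductase gene at a common fragile site, the FLAG folds were 3.09 and 3.16, each with its own SMAD3 peak. In LIPA, which encodes lysosomal acid lipase, FLAG peaks of 12 and 9 tags with folds of 3.74 and 2.88 shared 1 SMAD3 peak of 9 tags and a fold of 3.59. Protein-coding genes with a region in or within 10 kb had a median length of 69423 bp, against 80118 bp for those with any FLAG peak and 24170 bp for all.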
